A study of Rattus norvegicus with 6 samples.

Results

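The uptake carriers described here are the 9 genes Slc22a6, Slc22a8, Slc22a7, Slco1a1, Slco4c1, Slc22a12, Slc22a13, Slc22a2 and Slc22a5. They were taken by name, through the probes whose accession belongs to one of these genes, with no measured value in the rule. 18 of the 61657 non-control probes met that rule, and all 9 genes were among the 11804 genes tested. The tissue was renal cortex, from 6 male rats of the outbred Sprague-Dawley stock, bought at 5 weeks of age and fed a basal diet. 3 rats received tris(2-chloroethyl)phosphate (TCEP), an organophosphate flame retardant, at 400 mg/kg/day for 4 weeks, and 3 received corn oil, the vehicle, for the same 4 weeks. Each rat was measured on 1 single-colour Agilent array, and the comparison asks whether the carriers' transcripts differ after TCEP. The series' design text calls the rats of a group biological replicates.

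The proximal tubule clears drugs, toxins and metabolites from blood by taking them up at its basolateral side and releasing them into urine at its brush border. Carriers of the SLC22 and SLCO families do the uptake of organic anions and cations, and others of the same families take urate, nicotinate or carnitine back from the filtrate. The segments of the tubule differ in which carriers they hold: in the rat, Slc22a7 and Slco1a1 proteins are known from the last, straight segment, and the kidney content of several of these carriers depends on sex hormones. Slc22a6 and Slc22a8 transcription is known from mouse and human studies to depend on the factor HNF4.

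The promoter windows below are shown for the carriers whose levels are later seen to vary together between rats and for Slc22a8, which ran the other way. They are RefSeq sequences of build GRCr8, from 250 bases before to 50 bases after each gene's start, 5′ to 3′ on the gene's strand. Capitals mark the 50 bases from the gene's start on. Slc22a7 lies at chr9:22045248-22045547 (plus strand), Slco1a1 at chr4:176681943-176682242 (minus strand), Slco4c1 at chr9:104676413-104676712 (minus strand), Slc22a2 at chr1:50710970-50711269 (minus strand) and Slc22a8 at chr1:214927034-214927333 (plus strand).
Slc22a7: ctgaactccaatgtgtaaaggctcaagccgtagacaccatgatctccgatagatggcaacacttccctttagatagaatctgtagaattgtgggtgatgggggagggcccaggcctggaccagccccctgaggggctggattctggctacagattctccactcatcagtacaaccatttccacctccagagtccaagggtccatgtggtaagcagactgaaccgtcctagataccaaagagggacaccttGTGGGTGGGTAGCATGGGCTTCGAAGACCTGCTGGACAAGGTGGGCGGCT
Slco1a1: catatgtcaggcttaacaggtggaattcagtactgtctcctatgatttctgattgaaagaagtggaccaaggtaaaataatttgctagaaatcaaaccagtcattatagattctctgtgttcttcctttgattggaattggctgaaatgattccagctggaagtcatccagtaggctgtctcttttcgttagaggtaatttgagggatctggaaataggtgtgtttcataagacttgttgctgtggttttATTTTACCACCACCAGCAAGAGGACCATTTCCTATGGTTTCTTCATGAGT
Slco4c1: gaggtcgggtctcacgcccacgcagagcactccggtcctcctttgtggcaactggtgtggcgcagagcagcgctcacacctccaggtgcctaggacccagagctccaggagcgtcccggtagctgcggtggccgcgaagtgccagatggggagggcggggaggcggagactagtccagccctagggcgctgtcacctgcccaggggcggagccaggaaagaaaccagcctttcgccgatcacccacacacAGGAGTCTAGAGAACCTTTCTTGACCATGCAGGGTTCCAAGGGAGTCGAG
Slc22a2: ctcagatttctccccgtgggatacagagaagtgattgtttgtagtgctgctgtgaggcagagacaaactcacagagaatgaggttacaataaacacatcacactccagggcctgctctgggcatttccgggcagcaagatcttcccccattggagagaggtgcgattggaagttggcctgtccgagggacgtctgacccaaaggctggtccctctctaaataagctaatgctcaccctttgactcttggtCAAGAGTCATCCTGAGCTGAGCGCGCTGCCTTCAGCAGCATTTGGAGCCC
Slc22a8: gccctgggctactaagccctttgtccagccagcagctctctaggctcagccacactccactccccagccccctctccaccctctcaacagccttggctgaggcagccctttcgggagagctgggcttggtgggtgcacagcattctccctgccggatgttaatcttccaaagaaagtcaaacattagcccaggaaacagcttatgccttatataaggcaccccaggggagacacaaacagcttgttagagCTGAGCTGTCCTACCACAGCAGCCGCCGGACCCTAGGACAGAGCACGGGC
Windows were found for 8 of the 9 genes, all but Slc22a6. Neither the HNF4 core CAAAGTCCA (held by 0.391% of all 33469 windows) nor TATAAA, a single form of the TATA box (14.2% of windows), was matched in any of the 8. The search was for these exact letters on both strands. It says nothing of other forms of either motif, such as tatataa in the Slc22a8 window, or of letters outside these windows. In the same annotation Slc22a6 and Slc22a8 are next to each other on the chromosome, and Slc22a13 is next to Slc22a14.

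The arrays had 67.2% to 69.3% of probes well above background, and their upper quartile, the 75th percentile, was at 966 to 1078 intensity units. All TCEP arrays lay on slide 2 and all vehicle arrays on slide 1, scanned at different times, so slide, scan and group cannot be told apart. On the first principal component of all tested genes (38.6% of the variance), TCEP replicate 1 lay farthest out at -28.9. Vehicle replicate 3 lay farthest on the other side at 22.1, vehicle replicate 2 was at -11.9 and the rest lay between -2.40 and 11.7. On the second (18.0%), vehicle replicate 2 lay farthest out at -20.9, with vehicle replicates 1 and 3 at -5.13 and -3.48. The TCEP arrays were at 6.09, 13.3 and 10.2, so the groups, and with them the slides, did not overlap on this component. The carriers' differences are also given without both TCEP replicate 1 and vehicle replicate 2, a setting chosen after seeing the data. Correlations are given without the 2 arrays farthest from a gene's median, which are not always these. All 21 proximal tubule markers on the list used here were measured, while of the markers of tissue beside the kidney the liver gene Alb and the adrenal genes Star and Cyp11b1 were not well above background on all arrays of either group. Others of that list were: the liver gene Apob was at -1.40, -1.55 and -0.85 in TCEP arrays and -0.12, -0.94 and -0.23 in vehicle arrays (difference -0.84, SE 0.28, unadjusted p = 0.0251 and adjusted p = 0.559 by limma), and the adrenal genes Cyp17a1 and Cyp11a1 were measured too, with means of -3.04 and -5.43 in TCEP and -2.81 and -5.31 in vehicle arrays. The fat genes Adipoq, Cidea and Ucp1 were also measured. Their means were -0.02, -0.55 and -4.83 in TCEP and -0.12, -0.77 and -5.06 in vehicle arrays. Cidea was at 0.23, -0.81 and -1.06 in TCEP arrays and at -0.55, -1.03 and -0.74 in vehicle arrays.

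Levels are log2 of the signal over the array's own 75th percentile, so that 1 unit is a doubling, and differences are TCEP minus vehicle on that log2 scale. A level belongs to its own probe, so levels of different genes are not compared. The transcripts of the 9 uptake carriers did not differ detectably between TCEP-treated and vehicle cortex. 6 of the 9 had higher means in TCEP arrays and 3 had lower means, where 52.5% of all tested genes had higher means. In the limma fit over all 11804 genes, 0 of the 9 passed a Benjamini-Hochberg adjusted p of 0.05, against a background of 0% of genes. At an unadjusted p under 0.05 the count was also 0 of 9, against 8.33% of genes (4.21% higher and 4.12% lower in TCEP), and for 0 of 9 did the 3 TCEP arrays lie wholly to one side of the 3 vehicle arrays, against 15.6% of genes (8.63% with TCEP higher and 6.97% with TCEP lower). The median difference of the 9 was 0.15, beside 0.0084 for all genes tested. In the plot of levels by array, 4 carriers spread widely between rats of one group, and the groups overlap for all 9.

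**Figure D1:**
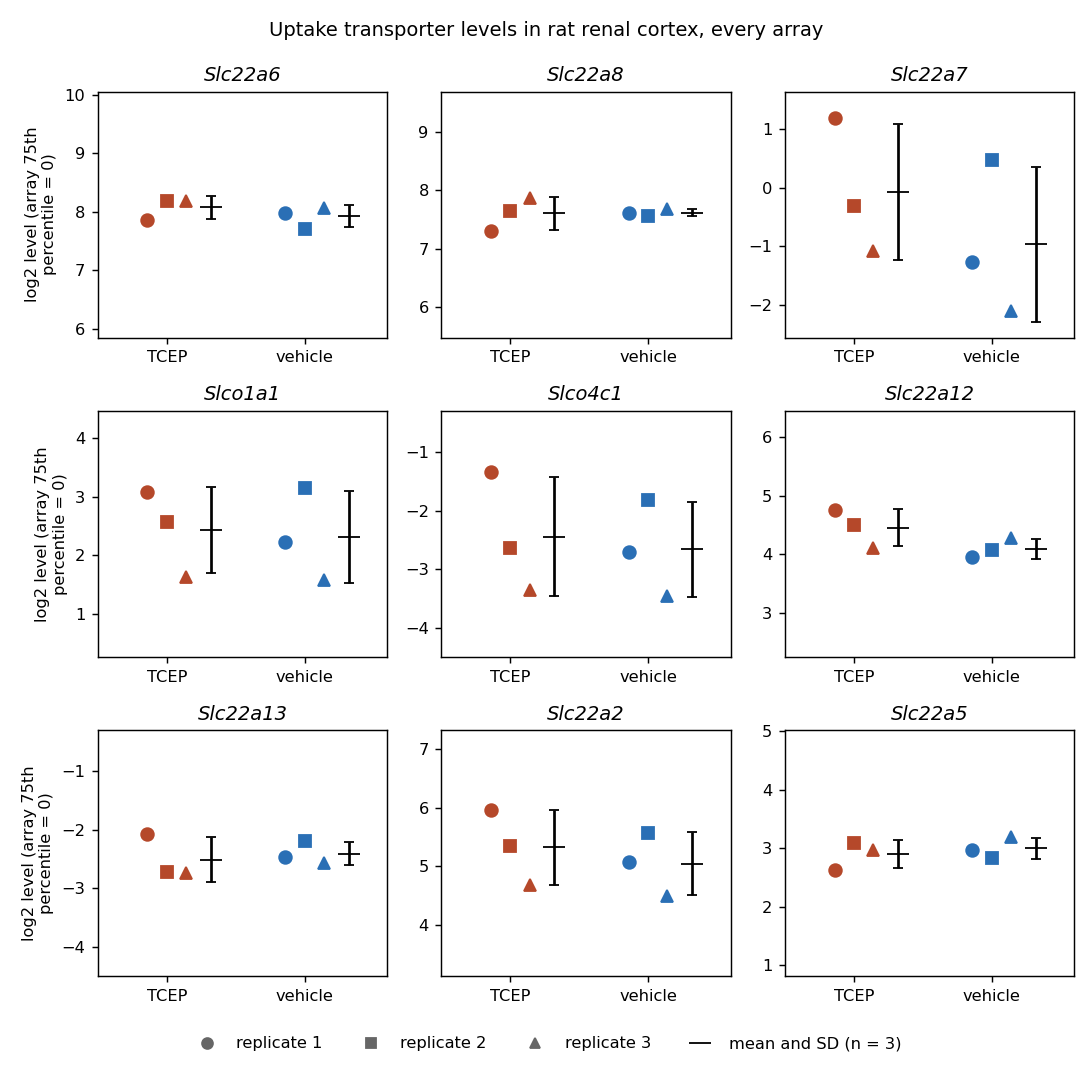
Log2 level of each carrier (vertical axis, against the array's 75th percentile, with the same span in each panel) on the 3 TCEP and 3 vehicle arrays, with symbols for replicate numbers and the mean and SD of each group in black. In every panel the 2 groups overlap, and Slc22a7 spans from -2.11 to 1.19 while Slc22a6 spans from 7.71 to 8.19.

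Slc22a6 and Slc22a8, which encode the basolateral organic anion transporters OAT1 and OAT3, carry the bulk of renal anion uptake and exchange their substrates for dicarboxylates. Slc22a6 was at 7.85, 8.18 and 8.19 in TCEP arrays and at 7.98, 7.71 and 8.07 in vehicle arrays. TCEP replicate 1 lay within the vehicle range and the other 2 TCEP arrays lay above it. The means were 8.07 ± 0.19 in TCEP and 7.92 ± 0.19 in vehicle arrays (SD, n = 3 each), a difference of 0.15 (SE 0.14, 95% confidence interval -0.19 to 0.50, adjusted p = 0.787). Leaving out 1 array moved it to between 0.049, without vehicle replicate 2, and 0.27, without TCEP replicate 1, with 0.10 without TCEP replicate 2 and 0.096 without TCEP replicate 3.

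Slc22a8 was at 7.30, 7.65 and 7.86 in TCEP arrays and at 7.62, 7.55 and 7.67 in vehicle arrays. The TCEP arrays reached beyond the vehicle arrays on both sides, and the difference was -0.01 (SE 0.15, 95% confidence interval -0.37 to 0.35, adjusted p = 0.991). Its sign turned with the setting, to 0.03 without scaling between arrays and to 0.14 without TCEP replicate 1, the array with the lowest value. The further probe of Slc22a6 differed by 0.06 (SE 0.16) and that of Slc22a8 by 0.01 (SE 0.14), close to the probes used for the genes.

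Slc22a7 encodes OAT2, an anion transporter that also carries nucleobases and cyclic nucleotides and that is more abundant in kidneys of female than of male rats. It was at 1.19, -0.32 and -1.09 in TCEP arrays and at -1.27, 0.48 and -2.11 in vehicle arrays. Vehicle replicate 2 lay above 2 of the 3 TCEP arrays, and the other 2 vehicle arrays lay below all of them. The means were -0.08 ± 1.16 in TCEP and -0.97 ± 1.32 in vehicle arrays, a difference of 0.89 (SE 0.83, adjusted p = 0.793) and the largest mean difference among the 9 genes by the probes that stand for them. Its 95% confidence interval, from -1.15 to 2.94, is wide beside that difference, and signals spanned 4.84-fold among the 3 TCEP rats and by 6.02-fold among the 3 vehicle rats. Single arrays moved it by more than 1.5 times: it was 0.26 without TCEP replicate 1, 1.40 without TCEP replicate 3, 1.62 without vehicle replicate 2 and 0.32 without vehicle replicate 3. Without both TCEP replicate 1 and vehicle replicate 2 it was 0.98 (adjusted p = 0.635).

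Slco1a1 encodes OATP1A1, a carrier of bile acids and steroid conjugates that androgens raise in rat kidney. It was at 3.08, 2.57 and 1.64 in TCEP arrays and at 2.22, 3.14 and 1.58 in vehicle arrays. The 2 groups covered nearly the same span, and the difference was 0.12 (SE 0.51, 95% confidence interval -1.14 to 1.37, adjusted p = 0.964). The sign turned without TCEP replicate 1 (-0.21) and without vehicle replicate 3 (-0.25), and the difference was 0.51 without TCEP replicate 3 and 0.53 without vehicle replicate 2. Slco1a1 has close relatives in the rat, and its 1 probe was not checked against theirs.

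Slco4c1 encodes OATP4C1, a basolateral carrier of digoxin, thyroid hormone and uremic solutes. It was at -1.34, -2.64 and -3.35 in TCEP arrays and at -2.71, -1.82 and -3.45 in vehicle arrays. Both groups again held 1 high, 1 middle and 1 low array, with a difference of 0.21 (SE 0.62, 95% confidence interval -1.31 to 1.74, adjusted p = 0.944). A further probe of the gene gave 0.19 (SE 0.53). The difference turned to -0.34 when TCEP replicate 1 was left out and to -0.18 when vehicle replicate 3 was, and leaving out TCEP replicate 3 gave 0.67 and vehicle replicate 2 gave 0.63.

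Slc22a2 encodes OCT2, the basolateral cation transporter that takes up metformin and cisplatin and that testosterone raises in rat kidney. It was at 5.95, 5.34 and 4.68 in TCEP arrays and at 5.07, 5.57 and 4.49 in vehicle arrays. The groups overlapped over most of their span, and the difference was 0.28 (SE 0.40, 95% confidence interval -0.70 to 1.26, adjusted p = 0.871). The further probe gave -0.0045 (SE 0.45). Leaving out 1 array gave values between -0.03, without TCEP replicate 1, and 0.60, without TCEP replicate 3, with 0.0053 without vehicle replicate 3 and 0.54 without vehicle replicate 2.

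The plot of differences sets the 18 probes side by side. All 18 intervals include 0, and those of Slc22a6, Slc22a8, Slc22a12 and Slc22a5 are the ones that also stay within 1 unit of 0 on every probe.

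**Figure D2:**
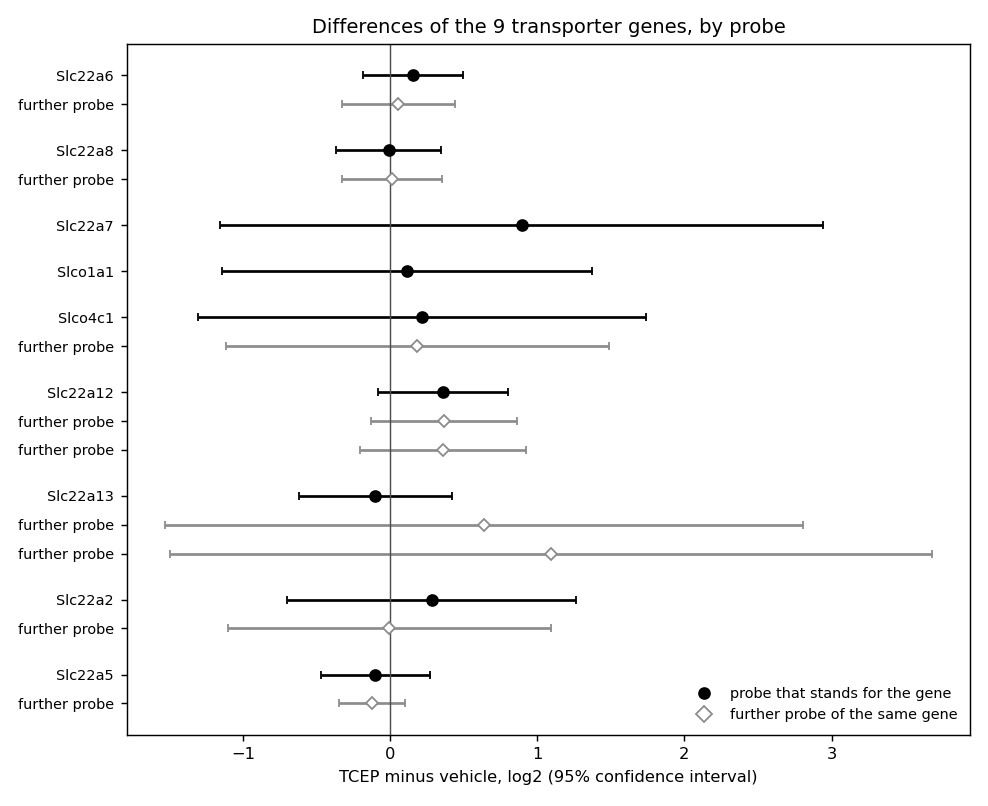
Difference TCEP minus vehicle (horizontal axis, log2) for each probe of the 9 genes with its 95% confidence interval, filled for the probe that stands for the gene and open for further probes. The 3 probes of Slc22a12 lie between 0.358 and 0.366, and all intervals include 0.

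Slc22a12 and Slc22a13 are brush border exchangers for small anions: Slc22a12 is the urate transporter URAT1 and Slc22a13, known as OAT10, carries nicotinate and urate. Slc22a12 was at 4.75, 4.51 and 4.12 in TCEP arrays and at 3.95, 4.07 and 4.28 in vehicle arrays. TCEP replicates 1 and 2 lay above all vehicle arrays and TCEP replicate 3 within their range. The means were 4.46 ± 0.32 in TCEP and 4.10 ± 0.17 in vehicle arrays, a difference of 0.36 (SE 0.18, 95% confidence interval -0.08 to 0.80). Its unadjusted p, 0.0929, was the smallest of the 9 genes, and its adjusted p was 0.657. The further probes gave 0.37 (SE 0.20) and 0.36 (SE 0.23). The difference was 0.53 without TCEP replicate 3 (unadjusted p = 0.0124, adjusted p = 0.541), 0.21 without TCEP replicate 1 and 0.20 without both TCEP replicate 1 and vehicle replicate 2.

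Slc22a13 was at -2.07, -2.73 and -2.74 in TCEP arrays and at -2.47, -2.19 and -2.57 in vehicle arrays, by its brightest probe. TCEP replicate 1 was the highest array and the other 2 TCEP arrays were the lowest, so the groups overlapped, with a difference of -0.10 (SE 0.21, adjusted p = 0.916). The other probes of this gene behaved differently between arrays. One was at -1.94, -5.10 and -4.90 in TCEP arrays and at -6.15, -3.49 and -5.58 in vehicle arrays, where vehicle replicates 1 and 3 were not well above background. The other was above background on all arrays and spanned 9.39-fold in signal, against 1.59-fold for the probe that stands for the gene, with -2.21 on TCEP replicate 1 and -3.61 on vehicle replicate 2 as its highest levels. Their differences, 1.09 (SE 1.06) and 0.64 (SE 0.89), had the opposite sign. Slc22a13 therefore has no settled direction or spread on these arrays.

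Slc22a5 encodes OCTN2, the sodium-coupled carrier that recovers carnitine from the filtrate. It was at 2.63, 3.09 and 2.97 in TCEP arrays and at 2.97, 2.84 and 3.19 in vehicle arrays. TCEP replicate 1 was the lowest of the 6 and the rest were intermixed. The difference was -0.10 (SE 0.15, 95% confidence interval -0.47 to 0.27, adjusted p = 0.879), with -0.12 (SE 0.09) from the further probe and 0.03 without TCEP replicate 1.

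The carriers differed widely in their spread between rats. The SD within groups, pooled over both, was 1.24 for Slc22a7, 0.92 for Slco4c1, 0.76 for Slco1a1 and 0.59 for Slc22a2, beside a median of 0.13 over all tested genes. The share of genes with a smaller SD was 99.6% for Slc22a7, 98.1% for Slco1a1 and 96.3% for Slc22a2, with Slco4c1 between Slc22a7 and Slco1a1. Slc22a6, Slc22a8 and Slc22a5 had pooled SDs of 0.19, 0.20 and 0.21, larger than in 68.3%, 70.4% and 71.9% of genes, with Slc22a12 at 0.26 and Slc22a13 at 0.31 in between. The spread was of like size in both groups for the 4 widest carriers, as the plot of SDs shows.

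**Figure D3:**
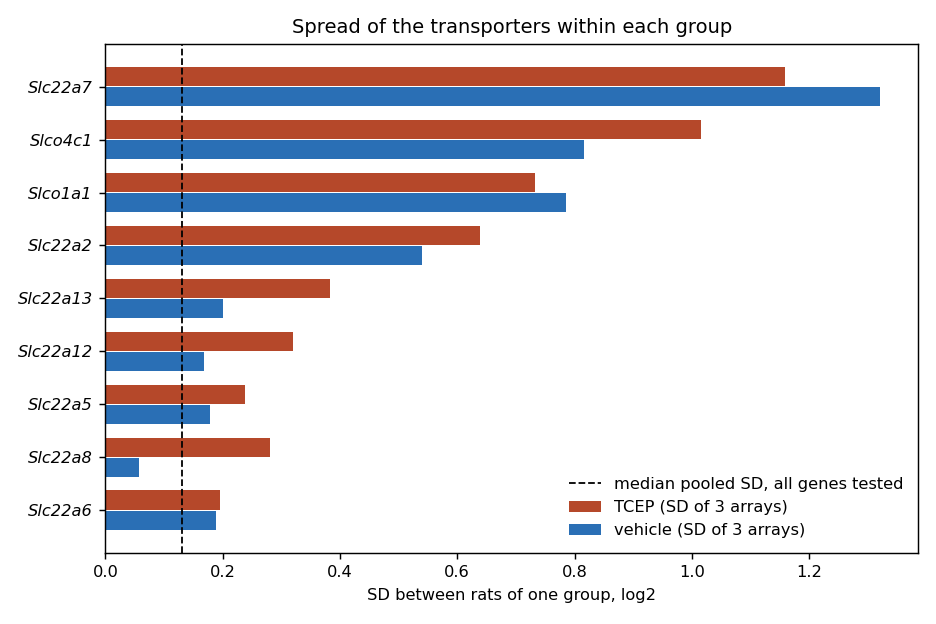
SD between the 3 rats of a group (horizontal axis, log2) for each carrier, TCEP above vehicle, with the median pooled SD of all tested genes as a dashed line. Slc22a7 has SDs of 1.16 in TCEP and 1.32 in vehicle arrays, and Slc22a6 has SDs of 0.19 in both.

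The 4 widest carriers varied together across the arrays. Relative to its own mean over the 6 arrays, each of them was high on TCEP replicate 1 (0.71 to 1.71) and on vehicle replicate 2 (0.38 to 1.00), and low on TCEP replicate 3 (-0.80 to -0.50) and vehicle replicate 3 (-1.59 to -0.69). Slc22a2 and Slco4c1 placed the 6 arrays in the same order, from TCEP replicate 1 down to vehicle replicate 3. Slc22a6, Slc22a8 and Slc22a5 ran the other way on a smaller scale, with deviations of -0.32 to -0.15 on TCEP replicate 1 and -0.29 to -0.05 on vehicle replicate 2. In the map of deviations this appears as opposite shades on those 2 arrays.

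**Figure D4:**
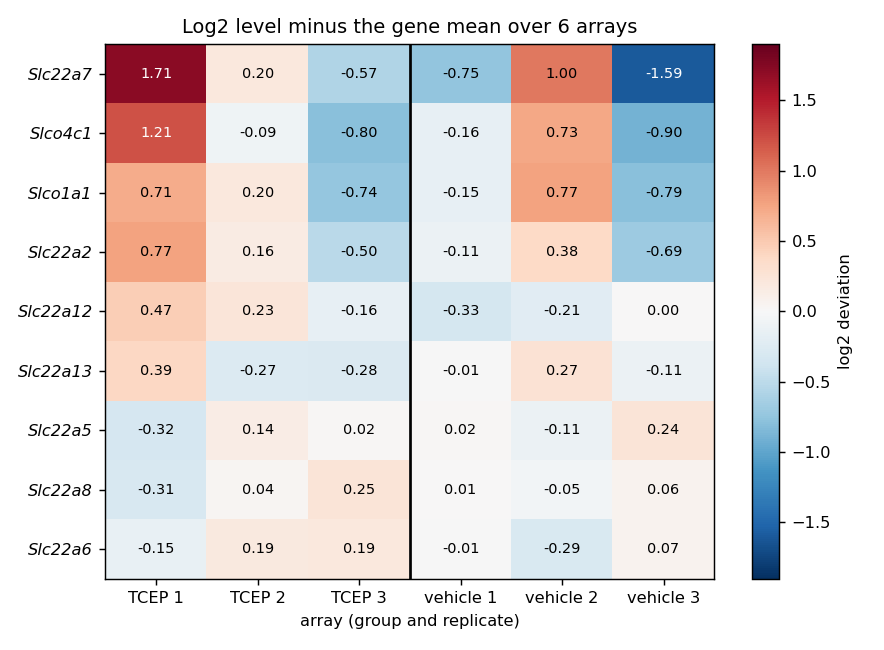
Log2 level of each carrier minus its mean over the 6 arrays (colour and printed value), with arrays in columns, TCEP left of vehicle, and carriers in rows. Slc22a7, Slco4c1, Slco1a1 and Slc22a2 are above their means on TCEP replicate 1 and vehicle replicate 2, where Slc22a5, Slc22a8 and Slc22a6 are below theirs.

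Of the 36 pairs of carriers, 7 had an adjusted p under 0.05 for Pearson's r (exact two-sided permutation over the 6 arrays, Benjamini-Hochberg over the 36 pairs). 0 pairs did for Spearman's rho, whose smallest possible p is 0.00278. No such count was made for pairs of other genes, and high r with many other genes was common on these arrays, as given below. Whether 7 of 36 pairs is more than among other genes was therefore not tested. Slc22a2 and Slco4c1 had r = 0.98 and rho = 1 (exact permutation adjusted p = 0.0417 and 0.0857). Without the 2 arrays farthest from the median of Slco4c1, TCEP replicate 1 and vehicle replicate 2, r was 0.97. Slc22a7 and Slc22a2 had r = 0.96 (rho = 0.94, exact permutation adjusted p = 0.0417 and 0.0857). Without the 2 arrays farthest for Slc22a7, TCEP replicate 1 and vehicle replicate 3, r was 0.86. Slco1a1 and Slc22a2 had r = 0.96 (rho = 0.94, the same adjusted p-values). Without the 2 arrays farthest for Slco1a1, TCEP replicate 3 and vehicle replicate 3, r was 0.88. Neither of these was computed without both TCEP replicate 1 and vehicle replicate 2.

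Some pairs ran in opposite directions. Slc22a8 and Slco4c1 had r = -0.88 (rho = -0.89, exact permutation adjusted p = 0.0429 and 0.109), with -0.93 without TCEP replicates 1 and 3, the farthest for Slc22a8. Slc22a6 and Slc22a8, the chromosomal neighbours, had r = 0.70 (rho = 0.89, exact permutation adjusted p = 0.176 and 0.109). Without TCEP replicate 1 and vehicle replicate 2, the farthest for Slc22a6, r was 0.65. Slc22a13, by its brightest probe, had r = -0.93 with Slc22a6 (rho = -0.94, exact permutation adjusted p = 0.0417 and 0.0857) and -0.88 with Slc22a8 (rho = -0.94, the same adjusted p-values). With Slc22a6 it was -0.9997 without TCEP replicate 1 and vehicle replicate 2. With Slc22a8 it was -0.90 without TCEP replicates 1 and 3. The disagreement of the Slc22a13 probes bears on both relations. The relation of Slc22a6 to Slc22a2, r = -0.65 (rho = -0.66, exact permutation adjusted p = 0.222 and 0.242), was 0.09 without TCEP replicate 1 and vehicle replicate 2 and so rests on those 2 arrays. Each slide holds the 3 arrays of 1 group, too few for an r of their own. Centring each group on its own mean therefore also centres each slide. With each group centred on its own mean, r was 0.99 for Slc22a2 and Slco4c1, 0.96 for Slc22a7 and Slc22a2, 0.98 for Slco1a1 and Slc22a2, -0.90 for Slc22a6 and Slc22a2, and -0.89 for Slc22a8 and Slco4c1.

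Slc7a13, an amino acid transporter of the straight segment of the proximal tubule, followed the same order. It is on the list of proximal tubule markers and was singled out after its values were seen. It was at 7.72, 6.84 and 5.996 in TCEP arrays and at 6.03, 7.13 and 5.59 in vehicle arrays, a difference of 0.60 (SE 0.56, adjusted p = 0.792), with the groups overlapping. Over the 6 arrays, r with Slc7a13 was 0.99 for Slc22a7, 0.97 for Slc22a2, 0.95 for Slco4c1 and 0.93 for Slco1a1, with rho of 0.94, 1, 1 and 0.94. Since the gene was chosen for this pattern, these values are a description with no test. Without the 2 arrays farthest from its median, TCEP replicate 1 and vehicle replicate 3, r was 0.97, 0.92, 0.84 and 0.92. For Slc22a8, Slc22a5 and Slc22a6 it was -0.79, -0.81 and -0.59, with rho of -0.89, -0.83 and -0.66. Without the same 2 arrays it was -0.66, -0.23 and -0.54, so the relation of Slc22a5 rests on them. Slc7a13 was not alone on its list: Acy3, Ggt1 and Kap were also higher on TCEP replicate 1 and vehicle replicate 2 than on any other array. Other proximal tubule markers did not follow this order. Slc5a2, the glucose carrier of the early segment, was at 6.88, 7.45 and 7.58 in TCEP arrays and at 7.33, 7.15 and 7.34 in vehicle arrays. Slc34a3 and Slc7a9 were also lowest on TCEP replicate 1.

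**Figure D5:**
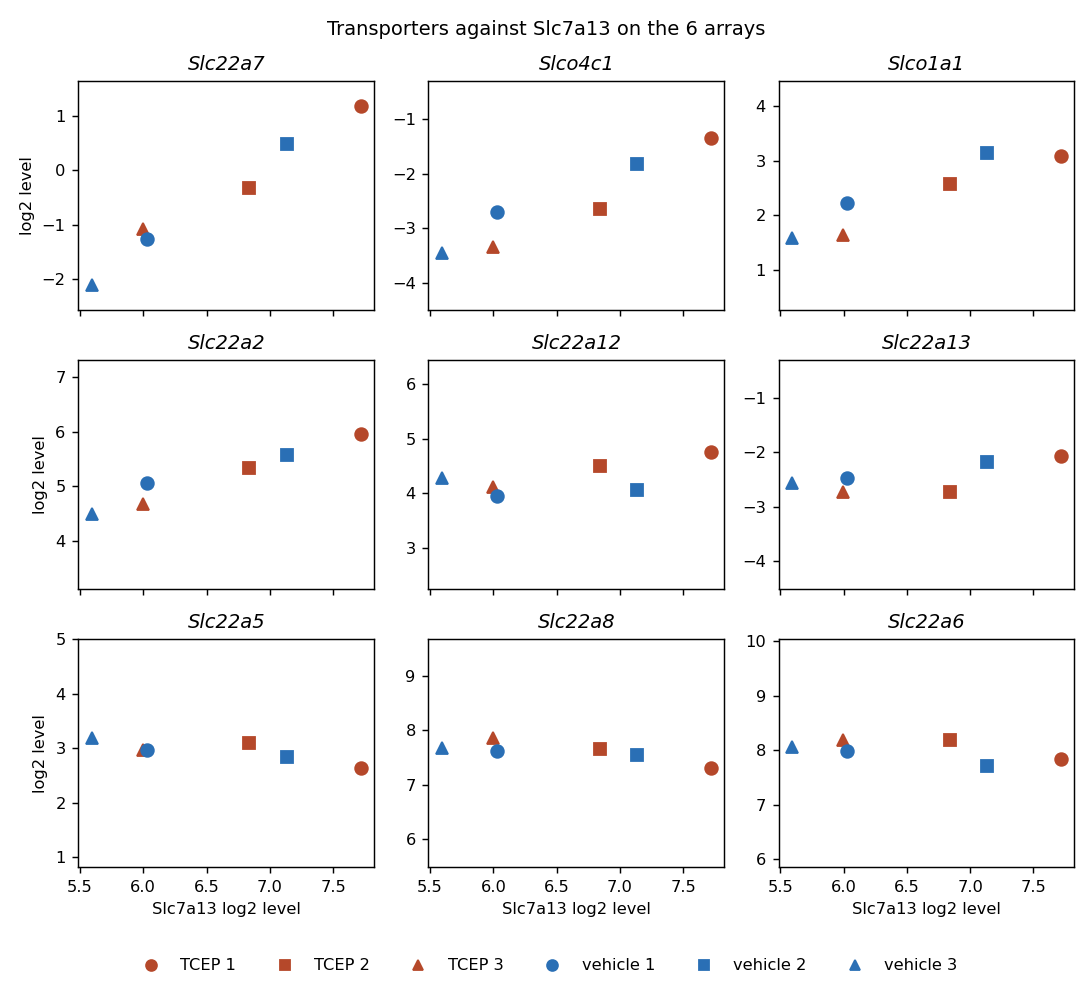
Log2 level of each carrier (vertical axes, of equal span) against that of Slc7a13 (horizontal axis) on the 6 arrays, red for TCEP and blue for vehicle, with symbols for replicate numbers. Slc22a7, Slco4c1, Slco1a1 and Slc22a2 climb with Slc7a13, with TCEP and vehicle arrays along 1 line, whereas the other 5 carriers show flatter or opposite relations.

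The mean levels of marker lists are given beside these values. For the 21 proximal tubule markers the list means ran from -0.05 to 0.04 in TCEP and from -0.05 to 0.06 in vehicle arrays. Each gene was first set to a mean of 0 over the 6 arrays. This mean averages markers that moved in opposite directions. Slc7a13 and Ggt1 were highest on TCEP replicate 1, where Slc5a2, Slc34a3 and Slc7a9 were lowest. The 9 measured thick limb and distal markers had means from -0.18 to -0.11 in TCEP and from -0.02 to 0.26 in vehicle arrays, without overlap. Of single genes, 15.6% did not overlap, and no such share was computed for list means. Of the 9, 5 (Atp6v1b1, Slc26a4, Trpv5, Calb1 and Avpr2) were lower at an unadjusted p under 0.05, against 4.12% of all genes, and 0 at an adjusted one. The thick limb gene Umod differed by 0.04 (SE 0.16). At the unadjusted cut the proximal tubule list had 1 higher and 1 lower, that of tissue beside the kidney 1 lower, and the other marker lists 0. Means were higher in TCEP for 0 of 10 blood and immune markers and for 1 of 10 glomerulus and vessel markers. The counts were 2 of 9 for thick limb and distal, 11 of 21 for proximal tubule and 5 of 11 for injury markers. Of the markers of tissue beside the kidney, 3 of 6 were higher, where 52.5% of all tested genes were. For the 10 glomerulus and vessel markers the means ran from -0.21 to 0.03 in TCEP and from -0.08 to 0.18 in vehicle arrays. For blood and immune markers (10 measured) the range was -0.30 to -0.04 in TCEP and -0.26 to 0.76 in vehicle arrays, with vehicle replicate 2 at 0.76. The 6 measured markers of tissue beside the kidney had means from -0.13 to 0.01 in TCEP and from -0.17 to 0.24 in vehicle arrays. For the 11 tubular injury markers these ranged from -0.14 to 0.13 in TCEP and from -0.02 to 0.11 in vehicle arrays. The part of segment shares or of other cells in the carriers' values was not tested, and in bulk RNA fewer cells of a type cannot be told apart from less RNA per cell.

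The genes most like each carrier over the 6 arrays were named by Pearson's r alone, as a description in which all points share the same arrays. Acy3, which is on the proximal tubule list, was the gene most like Slco1a1 (r = 0.998). Odc1, the ornithine decarboxylase of polyamine synthesis, was the second most like Slc22a7 (r = 0.996), after Stk32c (0.9986). Ankrd9 (0.9994) and Rnls (0.996) were nearest to Slc22a2, and Tgfbi and Arnt2 (0.993 each) to Slco4c1. Dpys, which encodes the pyrimidine-degrading dihydropyrimidinase, was the second nearest to Slc22a5 (0.996), after Tmem150c (0.997). Poglut3 and Ndufb9 (0.994 and 0.993) were nearest to Slc22a6, Usp46 and Spg21 (0.997 and 0.994) to Slc22a8, Rsph10b and Anapc11 (0.993 and 0.989) to Slc22a12, and Bicdl1 and Pou3f3 (0.996 and 0.989) to Slc22a13. With 6 arrays such values are common: at least 33 genes had r above 0.95 with each carrier.

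Further carriers of the same families, and the proteins that work with them, did not pass the test either. Of 27 other SLC22 and SLCO genes listed, 16 were measured, and 0 passed in either direction (12 higher and 4 lower means, median difference 0.20). Of all tested genes, 52.5% had higher means, with a median difference of 0.0084. At an unadjusted p under 0.05, 2 of the 16 were higher and 0 lower, against 4.21% and 4.12% of all genes. The smallest unadjusted p-values belonged to Slc22a17, at 3.40, 3.47 and 3.29 in TCEP arrays and 3.10, 3.16 and 3.25 in vehicle arrays (difference 0.22, SE 0.08, adjusted p = 0.561), then to Slc22a25 (0.23, SE 0.08, adjusted p = 0.561) and to the prostaglandin carrier gene Slco2a1 (-0.29, SE 0.14, adjusted p = 0.647). For each of these 3, picked by p, the groups did not overlap, as for 15.6% of all genes.

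Among efflux pumps and exchangers, which empty the tubule cell into urine or supply dicarboxylates, 13 of 16 were measured and 0 passed (11 higher and 2 lower means, median 0.08). Of all tested genes, 52.5% had higher means. At an unadjusted p under 0.05, 1 of the 13 was higher and 0 lower, against 4.21% and 4.12% of all genes. With each gene set to a mean of 0, the list means ran from 0.05 to 0.09 in TCEP and from -0.13 to 0.02 in vehicle arrays. They did not overlap, and no share of such list means was computed. Abcc2, the brush border anion pump MRP2, was at 1.57, 2.26 and 2.21 in TCEP arrays and at 1.57, 1.33 and 1.599 in vehicle arrays. TCEP replicate 1 lay among the vehicle arrays and the other 2 lay above them, with a difference of 0.51 (SE 0.20, adjusted p = 0.592). Slc17a1, a brush border phosphate and urate carrier, differed by 0.24 (SE 0.12, adjusted p = 0.657) and Abcb1b, a P-glycoprotein gene, by 0.65 (SE 0.37, adjusted p = 0.691). Slc13a3, the dicarboxylate carrier that supplies OAT1 and OAT3, differed by 0.05 (SE 0.13).

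Of 13 regulators and scaffolds, 12 were measured and 0 passed (10 higher and 2 lower means, median 0.20), where 52.5% of all genes had higher means. At an unadjusted p under 0.05, 1 of the 12 was higher and 0 lower, against 4.21% and 4.12% of all genes. Hnf4a, which encodes the HNF4 factor of the alpha type, differed by 0.09 (SE 0.19). The smallest unadjusted p-values were those of the xenobiotic receptor genes Nr1i3 (0.51, SE 0.19, adjusted p = 0.576) and Nr1i2 (0.19, SE 0.09, adjusted p = 0.634), with groups that did not overlap (15.6% of all genes), and of the oestrogen receptor gene Esr1 (0.41, SE 0.21, adjusted p = 0.663). Pdzk1, which encodes a scaffold that holds brush border carriers in place, differed by 0.04 (SE 0.09).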

How the data were processed

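Agilent Feature Extraction 10.7.1.1 wrote the authors' deposited files, per the file headers. In them the processed signal is a deposited linear intensity, with background subtracted and spatial trend removed, and without scaling across arrays. The deposited median intensity of spot and background, and flags of 0 or 1, come from the same files. The deposited series matrix holds the processed signal over a constant per array (column medians 0.104 to 0.107), with no centring seen. Cy3-labelled cRNA was made from 0.2 ug of RNA, per the labels' protocols.

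Probes were named through accessions in a RefSeq table (GRCr8, names only): 27460 of 61657 matched, for 15284 genes. 12 probes flagged as outliers were left out. log2 signals minus the array's 75th percentile were used. The probe with the highest mean stood for a gene, and its gene was tested if it passed the background flag on every array of at least 1 group. limma 3.58.1 in R 4.3.3 (lmFit, eBayes, two-sided, group as sole term) gave differences and Benjamini-Hochberg adjusted p-values. The code was tested on simulated data. Intervals use its 5.93 degrees of freedom, and the number of arrays limits precision.

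The rule named the 9 carriers, up to 3 genes per list by unadjusted p (marker lists are given as means) and the 2 genes most like each carrier. Genes outside it (such as Slc13a3, Hnf4a, Pdzk1, Slc7a13, Ggt1, Kap, Slc5a2, Slc34a3, Slc7a9, Umod and Cyp11a1) were chosen after their values were seen. Members and lists were chosen with earlier results of these data known. Alternatives were quantile, no scaling, normexp on median signals (offset 50), other filters on dim probes, the mean over probes, single probes, series matrix values, a variance trend, a replicate block and leaving out arrays. Figures were drawn with Python 3.11.15 and matplotlib 3.10.9.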

Additional observations from a re-analysis of the deposited data

How the results depend on the processing

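Under all 16 alternatives run over all genes, 0 genes and 0 of the 9 carriers passed the adjusted threshold (limma), and leaving out 1 array gave 0 to 0 for both. At an unadjusted p under 0.05 the genes numbered 983 as reported, 850 with the replicate block and 1568 with normexp, and the smallest adjusted p over the settings ran from 0.0870 to 0.769. Without scaling, 69.6% of them were higher in TCEP, against 50.6% as reported, with the median of all genes at 0.050. Slc22a6, Slc22a7 and Slc22a12 kept a positive difference in every alternative run. The sign turned for Slc22a8 without scaling (0.032), with the mean over probes (0.0018), by its further probe (0.014) and without both TCEP replicate 1 and vehicle replicate 2 (0.11), a setting chosen after seeing the data. It turned for Slc22a13 with the mean over probes (0.54) and by its further probes (0.64 and 1.09), and for Slc22a2 by its further probe (-0.0045). Leaving out 1 array gave -0.14 to 0.14 for Slc22a8, -0.25 to 0.53 for Slco1a1, -0.34 to 0.67 for Slco4c1, -0.32 to 0.011 for Slc22a13, -0.033 to 0.60 for Slc22a2 and -0.20 to 0.033 for Slc22a5. Without both TCEP replicate 1 and vehicle replicate 2, differences were 0.16 for Slc22a6, 0.20 for Slco1a1, 0.084 for Slco4c1 and 0.23 for Slc22a2. They were -0.21 for Slc22a13 and -0.047 for Slc22a5 in that setting, and all of these kept the sign of the main fit. Why signs turned in other settings was not tested beyond the construction of each alternative. Same-numbered rats share only a number: their deviations from group means correlated at -0.15, -0.10 and 0.23, and TCEP replicate 1 correlated best with vehicle replicate 2 (0.37). With the replicate block Slc22a7 differed by 0.89 (adjusted p = 0.785) and Slc22a12 by 0.36 (adjusted p = 0.753), and no call changed. Slide as a block could not be fitted, since each slide held 1 group. With 3 arrays a group, differences of the 4 widest carriers smaller than their intervals were not detectable.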

Other observations

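Other members of both families, chosen after their values were seen, were high on the same arrays as Slc22a7. Slc22a24, an SLC22 family gene, was at 4.24, 2.75 and 1.91 in TCEP arrays and at 1.29, 2.81 and 1.15 in vehicle arrays, a difference of 1.22 (SE 0.71, adjusted p = 0.696 by limma). TCEP replicate 1 was the highest and vehicle replicate 2 the second highest array. Slco1a6, a relative of Slco1a1, was at 3.04, 1.77 and 0.88 in TCEP arrays and at 1.02, 2.34 and 0.96 in vehicle arrays. Slco1a5 was at 1.76, 1.40 and 0.46 in TCEP arrays and at 0.57, 1.56 and 0.11 in vehicle arrays. Both had the same 2 arrays on top, with differences of 0.46 (SE 0.64) and 0.45 (SE 0.48). Slc22a18, by contrast, lay between 6.43 and 6.69 in TCEP arrays and between 6.45 and 6.53 in vehicle arrays.

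The injury marker Havcr1, which encodes KIM-1 and was also chosen after its values were seen, was at -3.29, -4.11 and -4.79 in TCEP arrays and at -4.83, -3.35 and -4.53 in vehicle arrays. It too was highest on TCEP replicate 1 and vehicle replicate 2, and it differed by 0.17 (SE 0.52, adjusted p = 0.946) between groups. Other injury markers went the opposite way on those arrays: Clu, which encodes clusterin, was at 2.75, 3.67 and 4.19 in TCEP arrays and at 3.98, 2.68 and 3.24 in vehicle arrays, and Lcn2, which encodes NGAL, at -3.17, -2.07 and -2.26 in TCEP arrays and at -1.88, -2.95 and -1.91 in vehicle arrays. Slc22a7 ranked 20 of 11804 genes by the size of its weight on the first principal component, Slco4c1 76, Slco1a1 149 and Slc22a2 214, whereas Slc22a6 ranked 2928. Genes were not scaled to equal variance for the components, so widely spread genes weigh more. These ranks therefore largely restate the spread given above.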
